A study of Homo sapiens with 9 samples.

Results

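The 53 genes described here encode the kinases, phosphatases and phospholipases C that make, convert and break down phosphoinositides, together with 2 kinases that the lipids recruit, AKT1 and AKT2. They were chosen by name, with no threshold on a measured value but with earlier results of these data known, from 26475 rows of a count table, and 52 of the 53 had enough reads to be tested, as did 13784 genes in all. The exception was PIP5K1B, which had at most 1 count in any library. The study sequenced messenger RNA from hTERT_RPE1 cells, a human retinal pigment epithelial line immortalised with telomerase, to ask how loss of the lipid kinase PIP4K2B compares with growth on a soft surface. Control cells carried the empty pLKO_1 vector (another label calls it Ctrl shRNA) and grew on glass coated with fibronectin. In sh_PIP4K2B the cells grew on the same coated glass and carried a hairpin RNA against PIP4K2B, a different one in each of the 3 libraries (sh_#1, sh_#2 and sh_#3). Soft denotes cells with the vector of the Control on a fibronectin-coated hydrogel of 2.3 kPa. All groups were grown for 24 h on their surface and hold 3 libraries each, so in sh_PIP4K2B the hairpin and the library cannot be told apart. The labels do not say that replicates came from separate cultures, and p-values measure the spread between these libraries.

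Phosphoinositides are phosphorylated forms of phosphatidylinositol that mark membranes and are also found in the nucleus. PI4K enzymes make PtdIns4P, which PIP5K enzymes turn into PtdIns(4,5)P2, while PIP4K enzymes reach the same lipid from the scarce PtdIns5P and so keep the level of PtdIns5P down. Class I PI3K adds a phosphate to PtdIns(4,5)P2 to give the lipid that recruits AKT, phospholipases C cut PtdIns(4,5)P2 into diacylglycerol and an inositol phosphate that releases calcium, and 3-, 4- and 5-phosphatases reverse the kinase steps.

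Depth was similar in the 9 libraries, between 19217346 and 24020799 counts. Levels below are CPM, the usual unit of counts relative to the library total, after scaling between libraries, and a gene was taken as changed at an edgeR adjusted p (Benjamini-Hochberg over all tested genes) below 0.01. Fold changes are on the log2 scale with their standard error. The hairpin libraries differed from each other far more than did replicates of the other conditions: the median spread of a member between its lowest and highest library was 0.13 on the log2 scale in Control, 0.10 in Soft and 0.60 in sh_PIP4K2B, beside 0.155, 0.14 and 0.69 over all tested genes. Of the 12 markers of pigment epithelium, DCT and TTR were at 0 in every library and RPE65 and TYR never exceeded 1 count, while MITF, OTX2 and RDH5 and the epithelial keratins KRT8 and KRT18 were expressed. The summed level of the 12 markers was 65.0 to 70.8 CPM in Control, 46.5 to 63.4 in sh_PIP4K2B and 74.7 to 79.4 in Soft. Of 4 blood and endothelial markers, CD3E and CDH5 stayed at or below 1 count and PTPRC at or below 12 counts, and PECAM1 had 1 to 7 counts on glass and 97 to 112 on gels.

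PIP4K2B (ENSG00000276293, GRCh38 chr17:38765691-38800126, minus strand), the gene that the hairpins target, was at 123, 124 and 119.5 CPM in the Control libraries. It measured 48.4, 40.9 and 36.6 CPM with sh_#1, sh_#2 and sh_#3. Every hairpin library therefore lay far below every Control library, at 39.6%, 33.5% and 29.96% of its mean there. This gave a log2 fold change of -1.54 ± 0.12 (edgeR adjusted p = 0.00038). On soft gels PIP4K2B messenger RNA stood at 119, 122 and 127 CPM, which overlapped the Control libraries, with a log2 fold change of 0.004 ± 0.11 (edgeR adjusted p = 0.981). In a fit of the Control and sh_PIP4K2B libraries alone the fall had the same size but an edgeR adjusted p of 0.0122, just outside the threshold, and 0.0375% of all genes passed there.

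PIP4K2A and PIP4K2C encode the other two enzymes that phosphorylate PtdIns5P. They were examined for a rise that would accompany the loss of PIP4K2B, and neither was higher in all 3 hairpin libraries. PIP4K2A measured 54.0, 53.9 and 58.3 CPM in Control and 24.5, 46.7 and 80.3 CPM with sh_#1, sh_#2 and sh_#3. It thus lay below every Control library with sh_#1 and sh_#2 and above them all with sh_#3. Its log2 fold change over the 3 libraries was -0.13 ± 0.33 (edgeR adjusted p = 0.808), and it turned to 0.19 without sh_#1. PIP4K2C ran the other way, with 68.2, 62.9 and 60.5 CPM in Control and 77.3, 64.6 and 37.9 CPM in the same order of hairpins. Here sh_#1 was highest and sh_#3 lowest, and sh_#2 fell among the Control values. The log2 fold change of PIP4K2C was -0.092 ± 0.21 (edgeR adjusted p = 0.799), and 0.15 without sh_#3. Neither value was larger than its standard error. On gels PIP4K2A measured 54.6, 60.5 and 55.3 CPM (log2 fold change 0.036 ± 0.33, edgeR adjusted p = 0.939). PIP4K2C was at 55.9, 55.2 and 58.4 CPM there, below every Control library, as Soft lay wholly to one side of Control for 79.4% of all genes. Its log2 fold change of -0.18 ± 0.21 did not pass (edgeR adjusted p = 0.526), but it passed in 1 of 13 alternatives.

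Tested one library at a time against Control, in a fit that assumes a lone hairpin library to vary like Control and Soft and so cannot tell a hairpin from its library, PIP4K2A was lower with sh_#1 (log2 fold change -1.18 ± 0.089, edgeR adjusted p = 3.98e-08) and higher with sh_#3 (0.53 ± 0.074, edgeR adjusted p = 2.55e-05). For PIP4K2C the signs were opposite, 0.28 ± 0.072 with sh_#1 (edgeR adjusted p = 0.00375) and -0.75 ± 0.081 with sh_#3 (edgeR adjusted p = 2.35e-06). The direction with sh_#2 was not settled for PIP4K2C, at 0.017 ± 0.074, and turned to -0.028 when libraries were scaled by their totals alone. To compare the 3 genes with each other, CPM was divided by transcript length in kb. The summed level of the family was 56.5 to 58.5 CPM per kb in Control and 54.0 to 56.4 in Soft. With the hairpins the sum was 39.8, 40.2 and 39.7 CPM per kb, nearly the same in all 3 although its makeup was not. PIP4K2C supplied 61.2% of it with sh_#1 and 50.6% with sh_#2, whereas PIP4K2A supplied 52.9% with sh_#3. In Control, PIP4K2B was the largest contributor at 39.1 to 40.4%, and on gels it kept 40.5 to 41.7%.

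**Figure D1:**
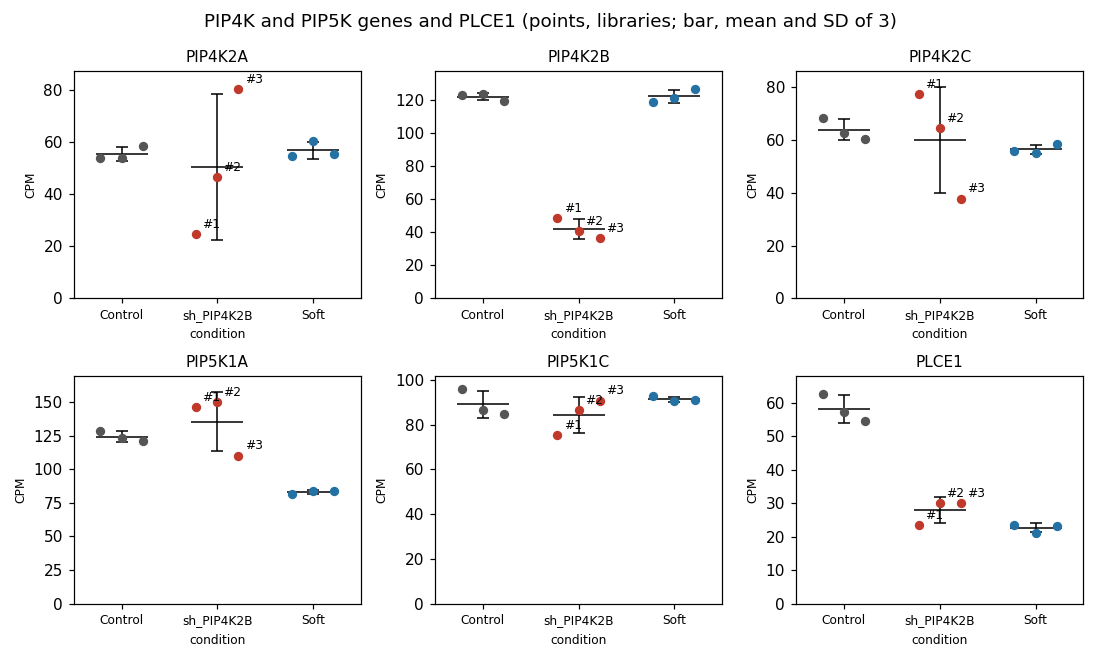
Level in CPM (vertical axis, from 0) of the PIP4K genes, 2 PIP5K genes and PLCE1 in Control, sh_PIP4K2B and Soft; each point is 1 library, hairpins are numbered, and the bar gives the mean and SD of 3. PIP4K2B and PLCE1 lie below Control with all 3 hairpins, PIP4K2A and PIP4K2C spread to both sides of Control, and PIP5K1A is lower in Soft.

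PIP5K1A, PIP5K1B and PIP5K1C make PtdIns(4,5)P2 from PtdIns4P. The main form here was PIP5K1A, with 64.8 to 66.2% of the family's level per kb in Control, followed by PIP5K1C. PIP5K1A measured 128, 123 and 121 CPM in Control and 81.8, 84.0 and 83.7 CPM on gels. All Soft libraries were below all Control libraries, with a log2 fold change of -0.58 ± 0.12 (edgeR adjusted p = 0.00446). With the hairpins it was at 146, 149.9 and 110.2 CPM, above Control with sh_#1 and sh_#2 and below with sh_#3 (log2 fold change 0.13 ± 0.12, edgeR adjusted p = 0.517). The fall on gels did not pass when any 1 Control or Soft library was left out (adjusted p 0.0163 to 0.0229) or when libraries were scaled by their totals (0.011). A processed copy, PIPSL, shares 3.41% of the 75-base stretches of PIP5K1A. In PIP5K1C the conditions overlapped, with 95.8, 86.3 and 84.9 CPM in Control, 75.1, 86.6 and 90.8 CPM with the hairpins and 92.7, 90.3 and 91.0 CPM on gels.

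Of the 52 members tested, 2 changed in sh_PIP4K2B against Control, PIP4K2B itself and PLCE1, and both fell. That is 3.85% of the members, a share that counts the hairpin target itself, beside 5.54% of all tested genes. By edgeR 0 members rose (11 at an unadjusted p below 0.05, as did 19% of all genes, and 5 by DESeq2), where 2.76% of all genes were higher and 2.77% lower. PLCE1 encodes phospholipase C epsilon, which Ras activates. It measured 62.7, 57.2 and 54.7 CPM in Control and 23.5, 30.2 and 30.2 CPM with the hairpins. All hairpin libraries were well below Control, at 40.4%, 51.9% and 51.9% of its mean, with a log2 fold change of -1.06 ± 0.13 (edgeR adjusted p = 0.00123). On gels PLCE1 was also low, at 23.7, 21.1 and 23.1 CPM, and its log2 fold change was -1.36 ± 0.13 (edgeR adjusted p = 5.53e-05); both comparisons use the same Control libraries. The call in sh_PIP4K2B was lost without Control library 1 (adjusted p = 0.0106), without Control library 2 (0.0104) and in the fit of the 2 conditions (0.0189).

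The number called in sh_PIP4K2B depended on the tool and on single libraries. DESeq2 called 11 members, 5 higher and 6 lower. It was run without the filter, and its 10.4% of all genes includes genes too weakly expressed to be tested in edgeR. That share is therefore not comparable with the share of members. In edgeR, leaving out 1 hairpin library gave 8, 10 and 8 members without sh_#1, sh_#2 and sh_#3, beside 11.9%, 14.4% and 12.7% of all genes. The 3 hairpin libraries lay all above or all below the 3 Control libraries for 18 members, the hairpin target among them, 9 in each direction. This is 34.6% of the members and close to the 34.1% of all genes. Among these the largest difference was that of INPP5D, the blood-cell form of the SHIP 5-phosphatases. It was barely detected and entered the test only through the hairpin libraries, with 4 to 6 counts in each Control library and 15, 25 and 37 with sh_#1, sh_#2 and sh_#3, and missed the threshold (log2 fold change 2.35 ± 0.47, edgeR adjusted p = 0.0109). The remaining members that missed it narrowly were MTMR3 (0.77, edgeR adjusted p = 0.0127), MTMR2 (0.44, 0.0147), PLCD1 (-0.80, 0.0148) and SYNJ1 (0.61, 0.0167).

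Growth on soft gels changed 16 of the 52 members, 7 upward and 9 downward. This is 30.8% of the members beside 30.6% of all tested genes, and by direction 13.5% and 17.3% beside 15.8% and 14.8%. The share of members changed was thus that of genes in general, and the description below is of which members they were. The count fell to between 5 and 9 when any 1 Control or Soft library was left out, and in a fit of the Control and Soft libraries alone it was 37 members beside 70.7% of all genes. In the main fit the wide spread between hairpin libraries also enters the error of the Soft test. With libraries scaled by their totals alone, which moves the median gene by 0.11 on the log2 scale, 9 members were higher and 4 lower. Over 13 alternatives, PIK3C2B, INPP5B, SYNJ2, PLCD1 and PLCE1 passed in all. The call was lost in 1 for PI4K2B, in 4 for INPP5K and PIK3CB, in 5 for SACM1L, in 6 for OCRL, in 7 for PIP5K1A, PIK3C2A, PI4KA and MTMR3, in 9 for MTMR6 and in 11 for MTMR1. Members whose Soft libraries lay entirely outside the Control range numbered 39 (75%), beside 79.4% of all genes.

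Among the PI3K genes the class II enzymes, which make PtdIns3P and PtdIns(3,4)P2 on endosomes, moved in opposite directions. PIK3C2B was weakly expressed on glass, with 19, 21 and 24 counts in the Control libraries (0.885, 0.922 and 1.05 CPM). On gels it had 138, 131 and 144 counts (6.29, 6.24 and 6.44 CPM), all far above Control, and its log2 fold change of 2.72 ± 0.29 (edgeR adjusted p = 9.96e-05) was the largest of any member. PIK3C2A, which is needed for endocytosis, went from 59.2, 60.4 and 65.9 CPM to 36.7, 36.4 and 36.9 CPM, a log2 fold change of -0.75 ± 0.17 (edgeR adjusted p = 0.00543). Expressed per length, PIK3C2A remained the main class II gene on gels, at 4.35 CPM per kb against 0.822 for PIK3C2B. Of the class I catalytic subunits PIK3CB was lower in Soft (-0.53, edgeR adjusted p = 0.00195), PIK3CA was at -0.56 (0.122) and PIK3CD at 0.13 (0.741). None of the regulatory subunits PIK3R1, PIK3R2 and PIK3R3, and neither subunit of the class III complex, PIK3C3 and PIK3R4, passed the test on gels.

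The 5-phosphatases, most of which remove the phosphate that PIP5K adds, gave 3 members that rose and 1 that fell out of 9. SYNJ2, synaptojanin 2, acts in clathrin-dependent uptake. Its level was 113, 112 and 112 CPM in Control and 301, 329 and 316 CPM on gels, 2.81 times Control, with no overlap (log2 fold change 1.49 ± 0.14, edgeR adjusted p = 6.56e-05). INPP5B was 9.96, 9.83 and 9.22 CPM in Control and 19.8, 20.6 and 19.1 CPM on gels, 2.05 times Control (log2 fold change 1.04 ± 0.12, edgeR adjusted p = 0.000131). Its closest relative OCRL, the gene of Lowe syndrome, fell from 77.8, 81.0 and 78.7 CPM to 51.4, 49.8 and 52.2 CPM (-0.63 ± 0.14, edgeR adjusted p = 0.00482). The smallest of these changes was that of INPP5K, from 20.4, 17.9 and 18.7 CPM to 28.0, 30.0 and 28.6 CPM (0.60 ± 0.11, edgeR adjusted p = 0.00231). The SHIP2 gene INPPL1, which had the highest level per length of all members in Control (47.3 CPM per kb), was at 0.31 on gels (edgeR adjusted p = 0.0195).

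**Figure D2:**
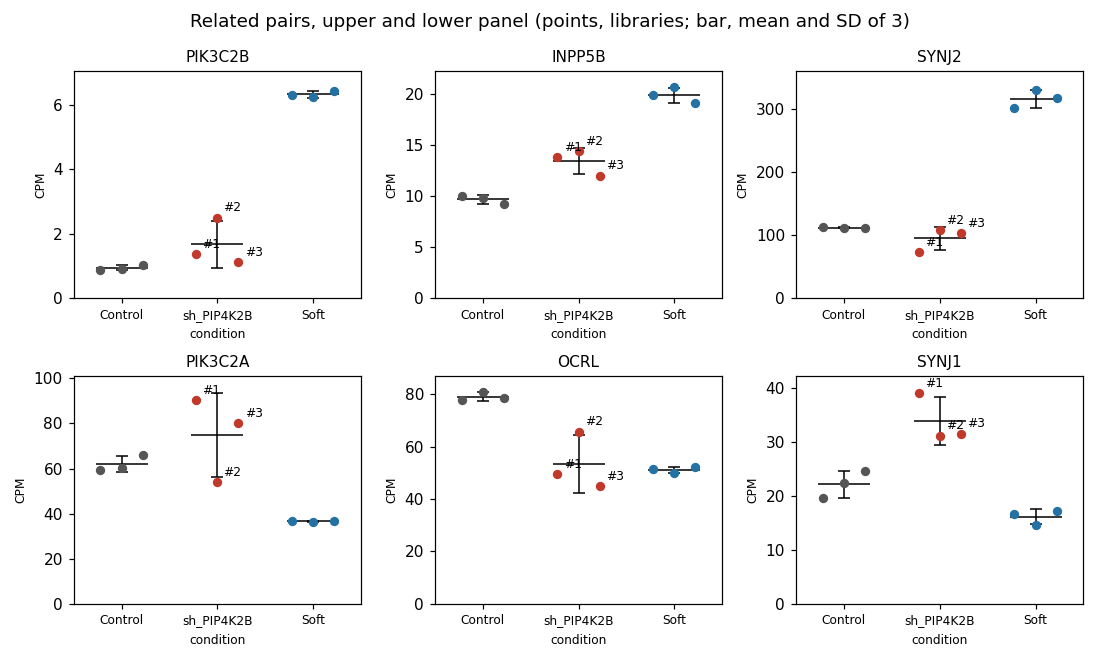
Level in CPM (vertical axis, from 0) of PIK3C2B, INPP5B and SYNJ2 (upper panels) and of their relatives PIK3C2A, OCRL and SYNJ1 (lower panels) in Control, sh_PIP4K2B and Soft; each point is 1 library and the bar gives the mean and SD of 3. In Soft each upper gene lies above all Control libraries and each lower gene below them; the value of SYNJ1 against Control did not pass the test (edgeR adjusted p = 0.0229).

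The sequences just upstream of the start of transcription are shown for both pairs whose members changed in opposite directions on gels, since relatives in protein need not share a promoter. The 250 bases before the RefSeq start are given 5′ to 3′ on the strand of the gene (GRCh38.p14), with matches to the motifs searched in capitals. PIK3C2B lies at chr1:204494806-204495055 (minus strand), PIK3C2A at chr11:17207987-17208236 (minus), INPP5B at chr1:37947058-37947307 (minus) and OCRL at chrX:129540009-129540258 (plus). The RefSeq start of OCRL is 410 bases downstream of the outermost start in GENCODE v44, so its window lies inside the gene as annotated there.
PIK3C2B: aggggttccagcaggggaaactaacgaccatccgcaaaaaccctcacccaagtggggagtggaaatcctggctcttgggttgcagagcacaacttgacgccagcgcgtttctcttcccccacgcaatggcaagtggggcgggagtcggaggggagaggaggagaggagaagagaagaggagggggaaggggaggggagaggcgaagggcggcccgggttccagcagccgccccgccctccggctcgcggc
PIK3C2A: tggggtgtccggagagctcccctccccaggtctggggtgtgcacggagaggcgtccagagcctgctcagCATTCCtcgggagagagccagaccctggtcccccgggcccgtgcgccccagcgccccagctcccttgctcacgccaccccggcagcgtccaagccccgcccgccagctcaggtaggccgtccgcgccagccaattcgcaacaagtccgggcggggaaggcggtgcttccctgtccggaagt
INPP5B: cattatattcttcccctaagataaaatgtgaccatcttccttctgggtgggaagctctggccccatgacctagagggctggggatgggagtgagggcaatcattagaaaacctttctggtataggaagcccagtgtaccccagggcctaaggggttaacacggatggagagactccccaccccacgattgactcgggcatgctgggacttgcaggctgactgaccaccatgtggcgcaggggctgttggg
OCRL: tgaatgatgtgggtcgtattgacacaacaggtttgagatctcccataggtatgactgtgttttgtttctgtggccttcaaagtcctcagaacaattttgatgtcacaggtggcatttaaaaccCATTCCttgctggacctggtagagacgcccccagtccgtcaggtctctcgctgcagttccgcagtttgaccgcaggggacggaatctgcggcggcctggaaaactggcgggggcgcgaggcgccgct
The letters searched on both strands were GGAATG (the TEAD motif), TGANTCA (AP-1) and CACGTG (E-box). A TEAD match stood in the windows of the 2 genes that fell, PIK3C2A and OCRL, and in neither window of the 2 that rose. For OCRL this match is upstream of the RefSeq start only. Over all members it occurred in 8 of 46 windows found in the RefSeq table (17.4%), beside 11.9% of 35116 windows of the same length. AP-1 letters were in 0 of the 46 windows, beside 6.57% of all, and the E-box in 5 (10.9%), beside 6.34%. Of the members higher in Soft, 0 of 6 windows held the TEAD letters and 1 of 6 the E-box. Of those lower, 2 of 9 held each. Some windows lie far from the outermost GENCODE start, among them PI4K2B (73370 bases, with an E-box) and INPP4B (441573 bases, with the TEAD letters). PLCE1 (95095 bases) and SYNJ2 (35230 bases) are further cases.

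Phospholipases C also went both ways on gels. PLCD1, a calcium-sensitive form, rose from 5.59, 4.70 and 4.54 CPM to 14.3, 12.9 and 14.7 CPM, 2.82 times Control and without overlap (log2 fold change 1.50 ± 0.17, edgeR adjusted p = 0.000129). PLCE1 fell, as given above, to 0.389 times Control. In PLCB1, which G proteins of the Gq class activate, the Soft libraries were all above Control, at 22.8, 20.1 and 23.2 against 9.55, 7.72 and 9.39 CPM, but the log2 fold change of 1.31 ± 0.36 missed the threshold (edgeR adjusted p = 0.0151). PLCB4 at -0.83 (0.093) and PLCB3 at -0.58 (0.0316), its relatives, had negative values that did not pass. For both genes all Soft libraries nevertheless lay below all Control libraries. The fit shares its estimate of spread over conditions, so the spread between hairpin libraries enters the error of the Soft test. For PLCB4 the log2 range was 0.131 in Control, 0.040 in Soft and 1.885 with the hairpins. PLCG1 and PLCD3 did not pass either.

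Upstream of these enzymes, PI4K2B, a PtdIns 4-kinase of endosomes, fell on gels from 19.1, 20.8 and 25.5 CPM to 10.7, 8.62 and 9.16 CPM, 0.436 times Control (-1.20 ± 0.21, edgeR adjusted p = 0.00163). PI4KA, the 4-kinase of the plasma membrane, was higher (0.49, edgeR adjusted p = 0.00429), while PI4KB and PI4K2A did not pass. Another gene, PI4KAP2, shares 12% of the 75-base stretches of PI4KA, and an annotated gene that overlaps PI4K2A shares 26.6% of those of PI4K2A. SACM1L, the Sac1 phosphatase that removes PtdIns4P in the endoplasmic reticulum, fell from 47.1, 50.5 and 52.8 CPM to 33.6, 31.7 and 30.1 CPM (-0.66 ± 0.13, edgeR adjusted p = 0.00248). One PtdIns 4-kinase and the Sac1 phosphatase were thus lower in Soft, and another 4-kinase was higher.

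Myotubularins remove the 3-phosphate and can thereby leave PtdIns5P. MTMR6 was 49.7, 50.5 and 58.4 CPM in Control and 32.7, 29.4 and 29.5 CPM on gels (-0.79 ± 0.19, edgeR adjusted p = 0.00794). MTMR3 was 28.7, 27.8 and 27.8 CPM in Control and 43.3, 47.8 and 45.2 CPM on gels (0.69 ± 0.16, edgeR adjusted p = 0.00647). A smaller fall was found for MTMR1 (-0.49, edgeR adjusted p = 0.00932). A gene on the opposite strand overlaps 65.4% of the exon bases of MTMR3, and whether the counting used strand is not given in the sources used here. TMEM55A and TMEM55B make PtdIns5P from PtdIns(4,5)P2. Taken with these and with the PIKfyve complex (PIKFYVE, FIG4 and VAC14), the myotubularins form a list of 11 genes linked to the making of PtdIns5P. On gels 1 of the 11 rose and 2 fell, with a median log2 fold change of 0.28 beside 0.012 over all genes. In sh_PIP4K2B 0 of the 11 passed in edgeR and 3 in DESeq2. The 10.4% of all genes called by DESeq2 includes genes too weakly expressed for edgeR and is not a like comparison. At an unadjusted p below 0.05 there were 6 (54.5%, beside 33.2% of all genes), 5 higher and 1, MTMR4, lower. Of the 11 values 7 were positive, with a median of 0.44 beside 0.050. That median is the value of PIKFYVE (0.44 ± 0.32, edgeR adjusted p = 0.36), whose direction differed between hairpins. By single library the median was 0.26 with sh_#1, 0.13 with sh_#2 and 0.395 with sh_#3, and 7, 6 and 10 values were positive. AKT1 and AKT2 passed in neither comparison against Control, yet for both all 3 hairpin libraries lay below all Control libraries. Such a lack of overlap, in either direction, was found for 34.1% of all genes. AKT1 measured 224, 226 and 216 CPM in Control and 167, 116 and 204 CPM with sh_#1, sh_#2 and sh_#3. The values of AKT2 were 128, 120 and 124 CPM in Control and 90.9, 109 and 101 CPM with the hairpins.

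**Figure D3:**
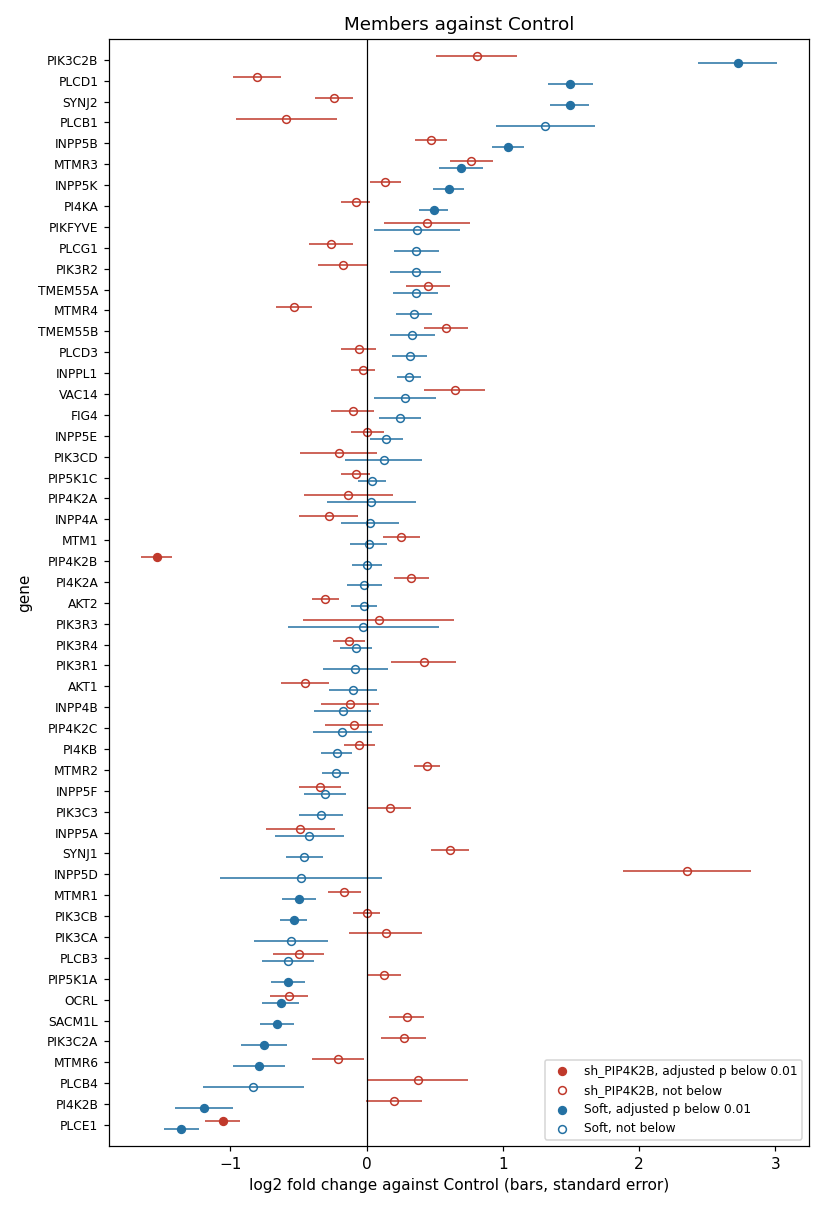
Log2 fold change against Control with its standard error (horizontal axis) of the 52 tested members (vertical axis, ordered by the value in Soft) in sh_PIP4K2B (red) and Soft (blue); filled points have an edgeR adjusted p below 0.01. The filled points are PIP4K2B and PLCE1 in red and 16 genes in blue, from PLCE1 at -1.36 to PIK3C2B at 2.72.

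Whether the 2 responses differ was tested by comparing Soft with sh_PIP4K2B directly, which leaves the Control libraries out of the difference. 17 of the 52 members differed (32.7%, beside 30% of all genes), 9 higher in Soft (17.3% beside 14.5%) and 8 lower (15.4% beside 15.5%). PLCD1 gave the largest difference among those with at least 10 counts in every library, with 3.31, 2.89 and 2.27 CPM in the hairpin libraries and 14.3, 12.9 and 14.7 CPM on gels (log2 difference 2.30 ± 0.17, edgeR adjusted p = 2.67e-05). SYNJ2 followed a like pattern, from 73.6, 108 and 104 CPM to 301, 329 and 316 CPM (1.73 ± 0.15, edgeR adjusted p = 4.23e-05). PIK3C2B (1.91), PLCB1 (1.90), PIP4K2B (1.54), MTMR4 (0.88), PI4KA, INPP5B and INPP5K were also higher in Soft. Lower in Soft were INPP5D (-2.83, at 2 to 6 counts in Soft and tested only because of its hairpin counts), PI4K2B (-1.39), SYNJ1 (-1.07), PIK3C2A (-1.03), SACM1L (-0.95), PIP5K1A, MTMR2 and PIK3CB. For PLCE1, low in both, the difference of -0.30 ± 0.13 did not pass (edgeR adjusted p = 0.0754), and the same was true of MTMR3 (-0.078 ± 0.16, 0.712) and OCRL (-0.061 ± 0.14, 0.74). In a fit of the Soft and sh_PIP4K2B libraries alone 11 members differed. This count is given without the share of all genes in that fit, so it is not a result about the members.

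Against Control, 36 members differed in the sh_#1 library (69.2%, beside 55.1% of all genes), 14 higher (26.9% beside 28.2%) and 22 lower (42.3% beside 26.9%); scaling by library totals made this split 17 and 18 and moved the median gene by 0.17. With sh_#2 there were 26 (50%, beside 36.2%), 11 higher beside 18.8% of genes and 15 lower beside 17.4%. With sh_#3 there were 25 (48.1%, beside 46.2%), 16 higher beside 23.7% and 9 lower beside 22.5%; with library totals this split was 22 and 7 and the median gene moved by 0.14. Each of these tests compares 1 library with Control. Over the 3 hairpins 46 members (88.5%, beside 75.3% of all genes) differed at least once, and 6 did not: INPP5E, INPP5K, INPPL1, PI4KA, PI4KB and PIK3CB.

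The same direction in all 3 hairpin libraries was found for 6 members, or 11.5%, beside 12.1% of all genes. PIP4K2B, PLCE1 and OCRL were lower, and MTMR2, MTMR3 and SYNJ1 were higher. SYNJ1, a 5-phosphatase of endocytic vesicles, had 19.5, 22.3 and 24.5 CPM in Control and 38.9, 31.1 and 31.5 CPM with the hairpins, and MTMR3 had 61.2, 44.3 and 38.3 CPM beside 28.7, 27.8 and 27.8. OCRL measured 49.4, 65.8 and 44.9 CPM with the hairpins, all below its Control values given above. Opposite directions between hairpins were found for 9 members, or 17.3%, beside 12.5% of all genes: INPP4B, PIK3CA, PIK3CD, PIK3R2, PIK3R3, PIKFYVE, PIP4K2A, PIP4K2C and PLCB4. Nearly all base stretches of PIK3R2 (99.1%) also occur in an annotated read-through gene, so its counts are uncertain.

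PIK3R3, a regulatory subunit of class I PI3K, had the widest spread. It measured 51.2, 48.9 and 53.3 CPM in Control and 51.9, 48.1 and 50.9 CPM on gels, and 13.0, 110.1 and 40.2 CPM with sh_#1, sh_#2 and sh_#3, an 8.45-fold range. The low library was sh_#1 (log2 fold change -1.97 ± 0.094, edgeR adjusted p = 4.58e-10) and the high one sh_#2 (1.11 ± 0.067, edgeR adjusted p = 1.44e-08), so that their mean over hairpins hid both (0.09 ± 0.55, edgeR adjusted p = 0.927). A read-through gene shares 22.1% of the 75-base stretches of PIK3R3. PLCB1 stood out with sh_#2, at 6.22, 2.31 and 9.19 CPM against 9.55, 7.72 and 9.39 in Control. PLCB4 was 33.1, 107 and 122 CPM, low with sh_#1 and high with the other two, against 64.6, 66.5 and 70.8 CPM in Control. In PIKFYVE, the kinase that makes PtdIns(3,5)P2 and PtdIns5P, sh_#2 was low and the other two high, at 48.9, 21.9 and 68.4 CPM against 32.4, 33.9 and 36.1 CPM. PIK3CD, the class I subunit known from white blood cells, gave 13.8, 36.7 and 21.8 CPM against 29.4, 27.4 and 26.3 CPM, with sh_#1 at 49.7% and sh_#2 at 132% of the Control mean. On gels the libraries lay closer together than the hairpin libraries for all 5 of these genes, with PIKFYVE at 43.5, 43.0 and 45.6 CPM and PIK3CD at 27.9, 33.2 and 29.6 CPM.

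**Figure D4:**
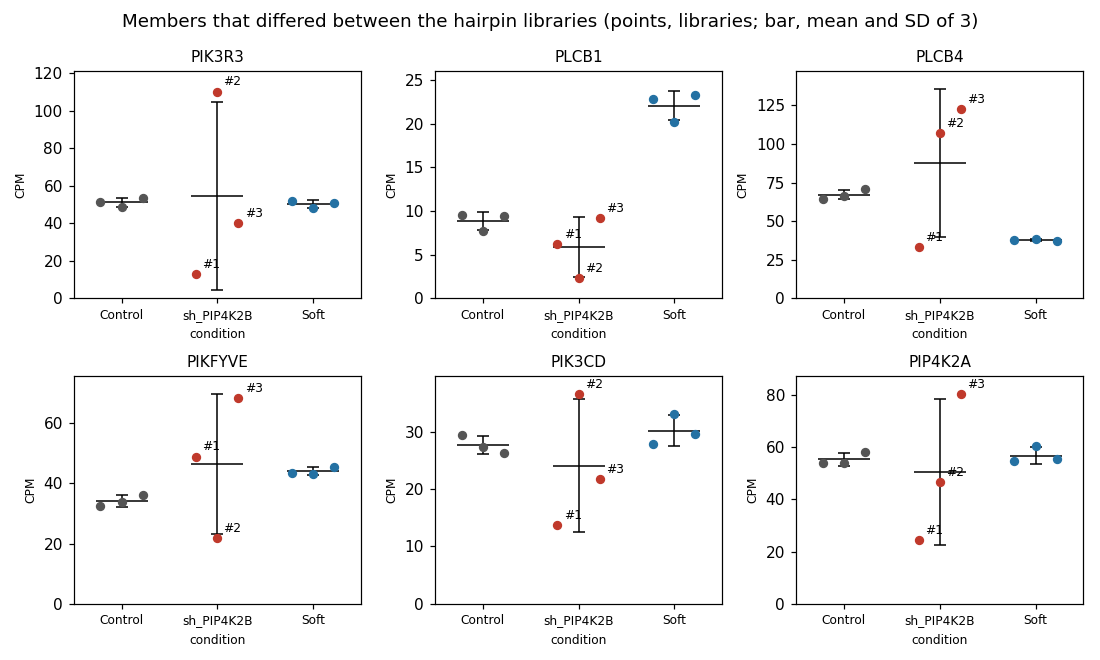
Level in CPM (vertical axis, from 0) of the 6 members with the widest range over the hairpin libraries, in Control, sh_PIP4K2B and Soft; each point is 1 library, hairpins are numbered, and the bar gives the mean and SD of 3. In each panel the hairpin points lie on both sides of the Control points, except for PLCB1, whose hairpin points lie below or among them.

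Other gene lists also differed between the hairpin libraries. The summed level of 12 targets of p53 was 1241 to 1275 CPM in Control, 6982, 5142 and 2143 CPM with sh_#1, sh_#2 and sh_#3, and 592 to 636 CPM in Soft. 6 of the 12 were higher in sh_PIP4K2B, and in Soft 1 was higher and 5 lower. For 12 genes of S phase the sums were 1405 to 1441 CPM in Control, 859, 1020 and 818 CPM with the hairpins and 764 to 813 CPM in Soft, with 9 of 12 lower in sh_PIP4K2B and 11 of 12 lower in Soft. The 12 interferon-induced genes summed to 463 to 481 CPM in Control, 1277, 696 and 413 CPM with the hairpins and 268 to 280 CPM in Soft; 1 was higher in sh_PIP4K2B and 3 lower in Soft. Their part in the changes of the phosphoinositide genes was not tested.

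**Figure D5:**
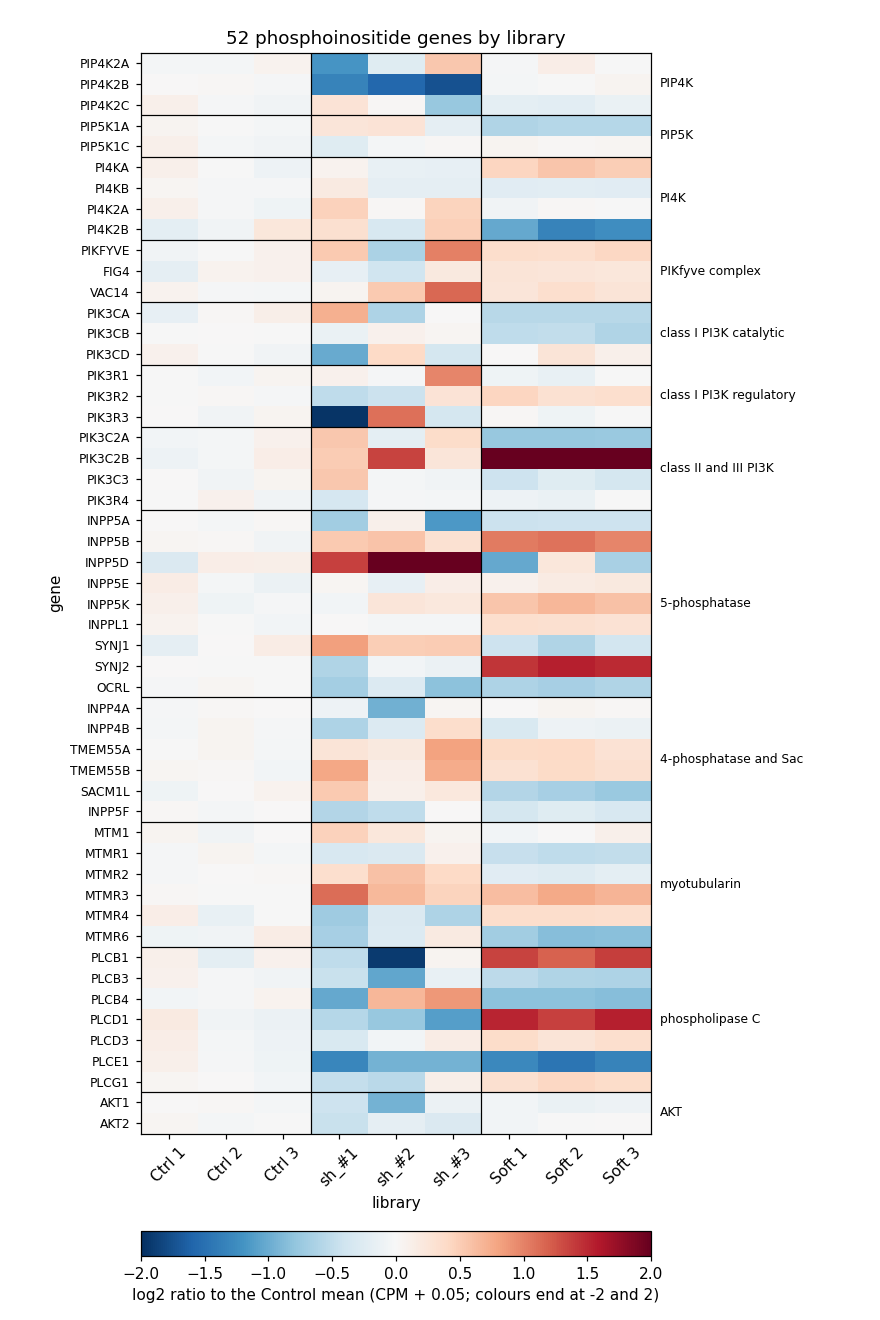
Log2 ratio of each library to the Control mean (colour, on CPM + 0.05, ending at -2 and 2) for the 52 tested members (rows, by enzyme family) in the 9 libraries (columns). Soft columns resemble each other, whereas neighbouring hairpin columns differ in colour for genes such as PIK3R3, PLCB4 and PIKFYVE.

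Of 80 related genes outside the set (lipid enzymes, transfer proteins, inositol phosphate receptors and genes around AKT), 71 were tested. Among them 5 were higher and 2 lower in sh_PIP4K2B (9.86%, beside 5.54% of all genes), and 19 were higher and 7 lower in Soft (36.6%, beside 30.6%). By list, the counts in sh_PIP4K2B were 1 higher of 16 further phosphoinositide enzymes, 1 lower of 19 genes of lipid supply and transfer, 1 higher and 1 lower of 16 genes of inositol phosphates and their receptors, and 3 higher of 20 genes around AKT. In Soft the same lists gave 7 higher and 2 lower, 4 and 3, 4 and 2, and 4 and 0. ITPR3, a receptor through which the product of phospholipase C releases calcium, fell from 296, 277 and 281 CPM to 128, 166 and 158 CPM with the hairpins (log2 fold change -0.92 ± 0.12, edgeR adjusted p = 0.00183). FOXO1, a transcription factor that AKT inactivates, was 0.885, 1.05 and 1.40 CPM in Control, 2.30, 4.09 and 5.98 CPM with the hairpins (1.88 ± 0.34, edgeR adjusted p = 0.00743) and 4.79, 4.67 and 4.25 CPM on gels (2.03 ± 0.34, edgeR adjusted p = 0.0012). On gels the largest rises of the related genes were PLCD4, a further phospholipase C, from 1.86, 2.41 and 2.05 to 13.9, 14.6 and 14.0 CPM (2.74 ± 0.26, edgeR adjusted p = 5.84e-05), and ITPKB, which phosphorylates inositol trisphosphate, from 9.73, 9.44 and 10.7 to 58.1, 54.7 and 57.6 CPM (2.51 ± 0.17, edgeR adjusted p = 1.13e-05). DGKH, a diacylglycerol kinase, had the lowest value of those that passed, from 17.4, 17.6 and 21.3 to 5.65, 6.67 and 5.72 CPM (-1.64 ± 0.22, edgeR adjusted p = 0.000352).

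Dividing by transcript length allowed the members to be ordered by level. In Control, after INPPL1, the highest members were PIK3R2 at 33.6, PIP5K1A at 32.7, PI4KB at 29.1 and PLCB3 at 29.0 CPM per kb; PI4KB and PLCB3 differed by less than their spread (SD 0.791 and 1.60, n = 3). At the other end of the tested members were PLCB1 at 1.21, PIK3C2B at 0.124 and INPP5D at 0.045 CPM per kb. The order depends on the transcript chosen for the length: with the canonical transcript AKT1 moved from 26.5 to 75.1 CPM per kb and from rank 6 to rank 1, whereas PIP4K2B stayed at rank 9. Among phospholipases C, PLCB3 led in Control (29.0 CPM per kb, 20.5 with the hairpins and 19.4 in Soft), followed by PLCG1 at 13.6, PLCD3 at 10.5 and PLCB4 at 8.60 CPM per kb. PLCE1 was at 4.66 CPM per kb in Control, 2.24 with the hairpins and 1.82 in Soft.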

How the data were processed

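The authors aligned reads from stranded mRNA libraries to GRCh38 with STAR, and Salmon is also named in the submitters' processing notes; the counting step and annotation are not given in the sources used here. They deposited estimated counts per gene, of which 12.3% were not whole, and these were rounded. edgeR 4.0.16 (R 4.3.3) was run with TMM scaling, filterByExpr, the quasi-likelihood F test and Benjamini-Hochberg adjustment, in 1 fit of 9 libraries by condition, and in a second fit with each hairpin as its own group. A standard error is the log2 fold change divided by the square root of F. The tests of sh_PIP4K2B, Soft and sh_#1 against Control were checked on simulated counts. There the hairpin libraries varied only as replicates do, so the check does not cover their real spread. Alternatives were DESeq2 1.42.0, other filters, scalings and thresholds, 2-condition fits, a replicate block and leaving out each library. No 2 libraries of the same condition agreed within counting noise. Lengths and overlaps came from GENCODE v44 (longest transcript), promoters from RefSeq.

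Members, the lists (genes linked to the making of PtdIns5P, related genes, p53, S phase, interferon and cell markers), and the rules below were chosen with earlier results of these data known. Values by library are given for the PIP4K and PIP5K genes, members changed in sh_PIP4K2B, the 12 with the largest changes in Soft and the 6 with the widest hairpin range, and at most 3 related genes in each direction. INPP5D, SYNJ1 and PLCB1 in Soft were added after their values were seen.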

Additional observations from a re-analysis of the deposited data

Results flagged for a closer look

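In 6 members every hairpin library lay on one side of all Control libraries and every Soft library on the other side, and the direct test of Soft against sh_PIP4K2B passed. That is 11.5% of the members, beside 7.2% of all tested genes. Higher in Soft were PLCD1 (log2 difference 2.30, edgeR adjusted p = 2.67e-05), SYNJ2 (1.73, 4.23e-05) and MTMR4 (0.88, 0.0007). Lower in Soft were SYNJ1 (-1.07, 0.000326), SACM1L (-0.95, 0.000375) and MTMR2 (-0.67, 0.000541). Against Control, only the Soft values of PLCD1, SYNJ2 and SACM1L passed on their own. The direct difference kept its direction and its call in all 13 alternatives for each of the 6 genes.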

How the results depend on the processing

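The lowest and highest counts of changed members with 1 library left out were 1 and 10 in sh_PIP4K2B against Control, 5 and 9 in Soft against Control and 10 and 23 in Soft against sh_PIP4K2B. DESeq2 called 11 members in sh_PIP4K2B. A threshold of 0.05 gave 11 there, and one of 0.001 gave 1, 5 and 9 in the same order of comparisons. Fits of the 2 conditions compared gave 0, 37 and 11 members; the first of these edgeR counts is of members of which 13 had an unadjusted p below 0.05. For the libraries of sh_#1, sh_#2 and sh_#3 the alternatives gave 29 to 41, 18 to 34 and 20 to 30 members. The share of all genes called also changes with the setting. The counts in this paragraph are given without that share, so they say nothing about the members in particular.

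Among single genes, 679 of 806 values under alternatives kept direction and side of the threshold, 101 no longer passed, 8 newly passed and 18 changed sign. Sign changes concerned small or divided values. PIP4K2B in Soft was -0.011 with no filter, -0.012 with DESeq2, -0.00093 in the 2-condition fit, and between -0.022 and 0.0225 with 1 library left out. PIP5K1C in sh_PIP4K2B was 0.0077 with library totals, PIP4K2C with sh_#2 was -0.028 with library totals and -0.0023 with DESeq2, and PIK3R3 in sh_PIP4K2B was -0.20 with the replicate block. With 1 library left out, PIP4K2A ran from -0.64 to 0.19 in sh_PIP4K2B, from -0.013 to 0.0705 in Soft and from -0.17 to 0.66 between them, PIP4K2C from -0.32 to 0.15 in sh_PIP4K2B, from -0.34 to 0.13 between Soft and sh_PIP4K2B and from -0.022 to 0.064 with sh_#2, PIK3CD from -0.64 to 0.073 and PIK3R3 from -0.95 to 0.55 in sh_PIP4K2B, and PLCB1 from -0.046 to 0.099 with sh_#3.

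No pairing by replicate number was detected: deviations of same-numbered libraries correlated between -0.123 and 0.040, and those of differently numbered ones between -0.0394 and 0.0916. The titles of Control and Soft carry the same vector numbers, and so few libraries in each condition cannot exclude a pairing. The fit with the replicate block called 2, 12 and 16 members, beside 2, 16 and 17 without it. Depth limits PIP5K1B, INPP5D and PIK3C2B, which had few counts on glass.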
